A study of Mus musculus with 6 samples.

Results

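The oligoadenylate synthetase (OAS) family was followed through 8 genes, Oas1a, Oas1b, Oas1c, Oas1g, Oas2, Oas3, Oasl1 and Oasl2, which were found by symbol among the 54752 genes of the count tables. All 8 were listed and all 8 passed the filter on low counts, so each of them was tested. Other genes of the pathway were read beside them. RNA was sequenced from the right hippocampus of 3 sham mice and 3 mice with bilateral carotid artery stenosis (BCAS), with 1 library per mouse. All mice were wild-type males of the C57BL/6 strain (C57BL/6 J in the study's methods) at an age of 14 weeks. In the BCAS operation both common carotid arteries were wrapped in a microcoil, the narrower one on the right, and the tissue was taken 3 weeks later. The sham operation left the coils out. The side that was sampled is that of the narrower coil. Each library holds the whole right hippocampus, so that lesioned and spared subfields are mixed in it.

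OAS proteins are sensors of double-stranded RNA. When they bind it they join ATP into short chains of adenylate with an unusual 2′,5′ linkage, called 2-5A, which serves as an antiviral messenger within the cell. The genes are classic targets of interferons, the cytokines that put cells on alert for viruses, and in the brain microglia are among the cells that respond in this way. Mice have a single Oas2 and Oas3, a group of Oas1 copies, and a pair of OAS-like genes, Oasl1 and Oasl2, whose proteins end in ubiquitin-like domains.

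The sham libraries held 34301711 to 35607098 counts and the BCAS libraries 29652456 to 31892083. Mitochondrial genes took 6.90 to 6.99% of the counts in sham and 6.02 to 6.56% in BCAS mice. A count of 3, taken as the limit of detection, corresponds to 0.0875 to 0.0995 CPM and allows for counting error alone. As each mate of a pair could add its own count, independent fragments may be fewer than counts, and this error larger. Halved counts were therefore of use as an alternative, which is reported below. CPM are counts scaled to the size of the library, here with the TMM factors of edgeR. Neuronal markers were high in all libraries, as for a hippocampal sample, and lower in BCAS mice. Their summed level over 6 markers was 4378 to 4806 CPM in sham and 2455 to 3586 CPM in BCAS mice. By adjusted P, 13.2% of all tested genes were lower, and so were 4 of the 6 markers. For 1 of these, Syt1 (edgeR adjusted P = 0.0302), this was lost under the replicate block (0.0628) and without sham mouse 1, 2 or 3 or BCAS mouse 1 (0.0777 to 0.0949). The 5 choroid plexus markers varied within both groups, with a summed level of 70.5 to 4105 CPM in sham mice and 47.7 to 5962 CPM in BCAS mice, and none of them passed the test between the groups. BCAS mouse 3 stood out among BCAS mice, with the highest CPM of all 6 libraries in 1311 (83.2%) of the 1576 genes called higher in BCAS mice.

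All 8 genes of the family were higher in BCAS mice. The fold changes were largest for Oas1g, Oas3, Oas1a and Oasl1, and smallest for Oas1b and Oas1c. The sham mean was under 1 CPM in all of these and in Oas2 (0.847 CPM), and 5.05 CPM in Oasl2. The call needed an adjusted P under 0.05 in edgeR's quasi-likelihood test and a log2 fold change above 1, with Benjamini-Hochberg adjustment over 18617 tested genes, of which 8.47% were called higher by the same rule and 0.999% lower by its mirror image. The median log2 fold change of the 8 genes was 4.13, and that of all tested genes was 0.018. Oas1g, Oas3 and Oasl1 reached the filter's level through the BCAS libraries alone, so that for these 3 genes a difference was built into being tested. Oas1a (log2 fold change 4.77) reached the filter's level in 2 of the 3 sham libraries. Oas1b, Oas1c, Oas2 and Oasl2 reached it in all 3, and had log2 fold changes of 1.47 to 3.72. Every BCAS mouse was above every sham mouse in all 8 genes, which was the case for 25.3% of tested genes. The plot of CPM by library shows the groups apart for each gene.

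**Figure D1:**
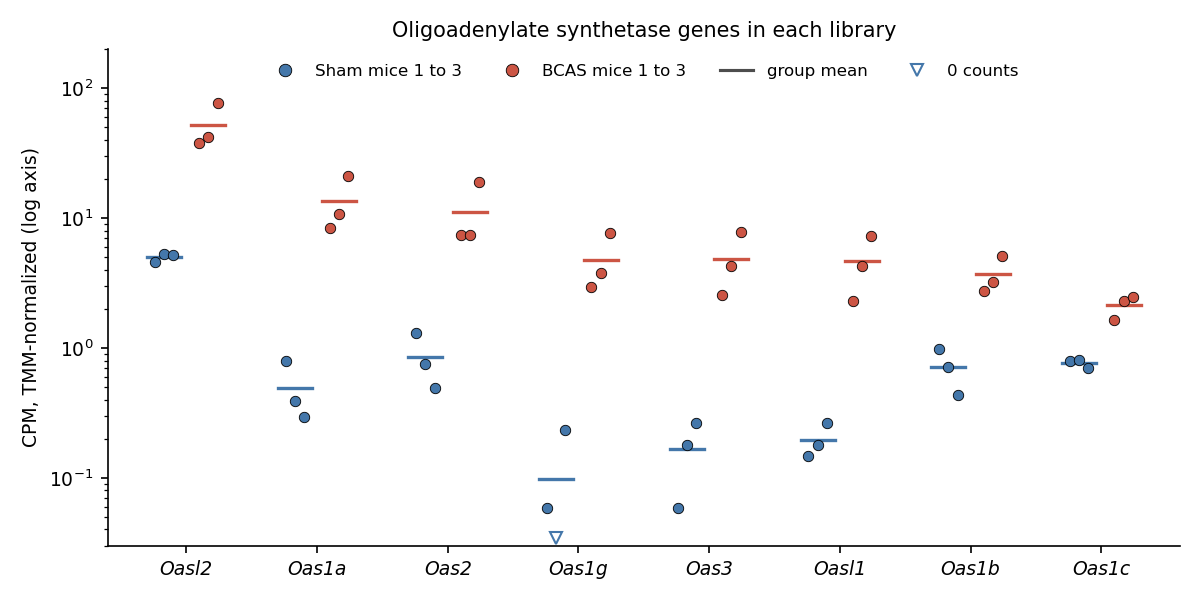
CPM (log axis) of the 8 family genes in each of the 6 libraries, with sham mice in blue, BCAS mice in red and group means as bars. The open triangle marks a library with 0 counts, and in every gene shown the 3 BCAS points lie above the 3 sham points, with BCAS mouse 3 as the highest point.

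Oas1a and Oas1g encode small synthetases that consist of a single catalytic unit. Oas1a (ENSMUSG00000052776.10) lies on the minus strand of chromosome 5 at 120896256 to 120907521 in mm10. It had 0.797, 0.389 and 0.292 CPM in sham mice 1 to 3 and 8.46, 10.8 and 21.2 CPM in BCAS mice 1 to 3. The lowest BCAS mouse was more than 10 times as high as the highest sham mouse. The log2 fold change was 4.77 (standard error, SE, 0.46, edgeR adjusted P = 1.33e-04). Oas1g (ENSMUSG00000066861.14), at 120876142 to 120887613 on the same strand, was hardly detected in sham mice, with 2, 0 and 8 counts. BCAS mice 1 to 3 had 96, 115 and 238 counts of Oas1g, or 2.95, 3.81 and 7.63 CPM. Its log2 fold change was 5.56 (SE 0.70, edgeR adjusted P = 5.82e-04), the widest error among the 8 genes. Sham mouse 3 held 8 of the 10 sham counts, and without that mouse the fitted log2 fold change was 7.16, a value that rests on 2 counts.

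The pair is close in sequence. The coding sequences of Oas1a and Oas1g were 96.7% identical over 1104 aligned bases, whereas Oas1a and Oas1c shared 76.3% over 1074 bases. Of all stretches of 100 bases in the annotated transcripts, 40.9% of those of Oas1a occurred again in Oas1g and 31.3% of those of Oas1g occurred again in Oas1a. Reads that fit both genes equally well were left out of the counts, so the levels of both genes may be understated, and the split between them is uncertain. No such stretch was shared with another gene by Oas1b, Oas2, Oas3, Oasl1 or Oasl2.

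The resemblance extends upstream of the genes. RefSeq's promoter windows on GRCm38.p6, with 250 bases before and 50 bases after the start of a gene, held 6 of the 8 members, and Oas1b and Oas2 had no entry. The windows were searched on both strands, with overlapping matches counted, for the core of the interferon-stimulated response element (ISRE), which reads GAAA, any 2 bases and GAAA, and to which factors activated by interferons bind. This core was found in the windows of Oas1a, Oas1g, Oas1c and Oas3, and not in those of Oasl1 and Oasl2, while 3.44% of the 32851 windows of all genes held it. The 120 bases before each of these 4 starts are shown because they hold the element, which is set in capitals and the rest in lower case, each read 5′ to 3′ on the strand of the gene. The stretches lie at chr5:120907526-120907645 (Oas1a), chr5:120887614-120887733 (Oas1g), chr5:120812515-120812634 (Oas1c) and chr5:120777660-120777779 (Oas3), all on the minus strand.
Oas1a: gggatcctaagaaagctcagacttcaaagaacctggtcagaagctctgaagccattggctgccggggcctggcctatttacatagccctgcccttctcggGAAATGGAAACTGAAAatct
Oas1g: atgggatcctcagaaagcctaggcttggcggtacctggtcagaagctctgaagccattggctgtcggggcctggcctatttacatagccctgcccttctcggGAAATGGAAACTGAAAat
Oas1c: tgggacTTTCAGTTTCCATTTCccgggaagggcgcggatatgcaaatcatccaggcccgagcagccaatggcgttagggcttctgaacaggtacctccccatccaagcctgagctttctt
Oas3: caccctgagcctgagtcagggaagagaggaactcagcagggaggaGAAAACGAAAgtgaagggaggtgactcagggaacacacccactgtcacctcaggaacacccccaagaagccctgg

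The stretches of Oas1a and Oas1g were 91.5% identical over 118 aligned bases. Both carry 2 overlapping matches, at -20 to -5 in Oas1a and at -18 to -3 in Oas1g, counted from the start of transcription. Oas3 carries 1 match at -75 to -66. In Oas1c 2 overlapping matches lie on the opposite strand at -114 to -99. The annotated start of Oas1b lies 121 bases from that of Oas1c on the other strand, so these matches also lie 7 to 22 bases before the start of Oas1b. TTCNNNGAA, the core of the gamma-activated site of genes that respond to interferon-gamma, occurred in 1 of the 6 windows, that of Oas1a, and in 8.30% of all windows. A match is a string of letters in the window and was not tested for binding.

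Oas1b and Oas1c rose less than the other copies. Oas1b, whose full protein protects mice from flaviviruses, is annotated as a polymorphic pseudogene, since common laboratory strains carry a premature stop in it. Its longest reading frame held 759 bases, against 1104 in Oas1a. Oas1b (ENSMUSG00000029605.16; chromosome 5, 120812635 to 120824163, plus strand) had 0.974, 0.718 and 0.437 CPM in sham mice and 2.74, 3.22 and 5.10 CPM in BCAS mice. The log2 fold change was 2.37 (SE 0.37, edgeR adjusted P = 0.00178). Oas1c (ENSMUSG00000001166.17; chromosome 5, 120800194 to 120812514, minus strand) had 0.80, 0.81 and 0.70 CPM in sham mice and 1.63, 2.29 and 2.47 CPM in BCAS mice. Its sham values lay closer together than those of any other member under 1 CPM relative to their mean, and BCAS mice 2 and 3 were nearly level. The log2 fold change of 1.47 (SE 0.29, edgeR adjusted P = 0.00562) was the smallest of the 8, and its 95% interval of 0.81 to 2.12 did not reach that of Oas1a (3.72 to 5.81). Exons of Oas1c overlap those of Gm43069 on the opposite strand over 227 bases (9.44% of its length), and reads there could not be assigned to either gene because strand was ignored.

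The remaining Oas1 copies were hardly detected. Oas1d and Oas1e had 0 counts in every library. Oas1f had 4 counts in sham mouse 3 alone, and Oas1h had 6 counts in sham mouse 3 and 1 to 3 counts in the BCAS mice. None of these 4 genes passed the filter, and a difference in them was not detectable at this depth. The rise within the Oas1 group was thus measured in 4 of its 8 listed copies.

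Oas2 and Oas3 encode larger synthetases built from more than one OAS unit. Oas2 (ENSMUSG00000032690.16; chromosome 5, 120730333 to 120749853, minus strand) had 1.3, 0.75 and 0.50 CPM in sham mice. BCAS mice 1 and 2 were level at 7.48 and 7.36 CPM, and BCAS mouse 3 had 18.9 CPM. The log2 fold change was 3.72 (SE 0.47, edgeR adjusted P = 6.04e-04). Without BCAS mouse 3 it was 3.12, which lowers the fold from 13.2 to 8.69. Oas3 (ENSMUSG00000032661.9; chromosome 5, 120753098 to 120777661, minus strand) has the longest coding sequence of the family, with 3417 bases. Sham mice 1 to 3 had 2, 6 and 9 counts of Oas3. BCAS mice 1 to 3 had 83, 128 and 244 counts, or 2.55, 4.24 and 7.82 CPM. Its log2 fold change was 4.83 (SE 0.57, edgeR adjusted P = 3.82e-04), and the BCAS mice were spread over a wider range than in Oas1b and Oas1c.

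The OAS-like pair differed in level but both genes rose. Oasl2 is a working synthetase in mice and had the highest CPM of the family in every library. Oasl2 (ENSMUSG00000029561.17; chromosome 5, 114896936 to 114912234, plus strand) had 4.63, 5.30 and 5.22 CPM in sham mice and 37.7, 42.2 and 77.3 CPM in BCAS mice. The sham mice were nearly level, and BCAS mouse 3 lay well above the other two. The log2 fold change of 3.37 had the smallest standard error of the family (0.27, edgeR adjusted P = 5.16e-05). Oasl1 has lost the synthetase activity and is known to hold back translation of the mRNA of Irf7, an interferon regulatory factor. Oasl1 (ENSMUSG00000041827.15; chromosome 5, 114923240 to 114937915, plus strand) was near the limit of detection in the sham group, with 5, 6 and 9 counts. The BCAS group had 75, 130 and 229 counts, which equal 2.31, 4.31 and 7.34 CPM. BCAS mouse 2 was 1.87 times as high as mouse 1, the widest gap between these 2 mice in the family, and mouse 3 was higher again. The log2 fold change was 4.54 (SE 0.51, edgeR adjusted P = 2.85e-04). Despite their position next to each other, 11.0 kb apart, Oasl1 and Oasl2 shared only 62.7% of 1489 aligned coding bases.

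Levels of different genes were compared per length, as CPM per kilobase of exon. In sham mice Oasl2 was at 0.792 ± 0.057 CPM per kb (SD, n = 3), above every other member. Oas1b (0.356 ± 0.135), Oas1c (0.319 ± 0.025), Oas1a (0.261 ± 0.142) and Oas2 (0.190 ± 0.092) followed, and each of these overlapped its neighbour in this order. Oasl1 (0.075 ± 0.023), Oas1g (0.042 ± 0.052) and Oas3 (0.024 ± 0.014) were lowest and overlapped likewise, although Oas1a was above Oas2 and Oasl1 above Oas1g in each of the 3 mice, and the range of Oasl1 was below that of Oas2. In BCAS mice Oasl2 (8.22 ± 3.4) and Oas1a (7.16 ± 3.59) led the order and their ranges overlapped, although Oasl2 was higher than Oas1a in each of the 3 mice. Oas1a lay apart from Oas2 (2.52 ± 1.48). Oas1g (2.05 ± 1.06), Oas1b (1.85 ± 0.626), Oasl1 (1.78 ± 0.972), Oas1c (0.885 ± 0.183) and Oas3 (0.689 ± 0.381) followed, and neighbours from Oas2 to Oas3 overlapped in range, although Oas2 was above Oas1g and Oasl1 above Oas1c in each of the 3 mice. With the exons that overlap Gm43069 left out of the length, Oas1c in sham mice was at 0.353 CPM per kb. The order depends on how the sequence shared by Oas1a and Oas1g is treated. With only the share of 100-base stretches found in no other gene counted as length, an alternative chosen after seeing the data, Oas1a was at 12.1 ± 6.07 CPM per kb in BCAS mice (SD, n = 3) and above Oasl2 in each of the 3. Oas1g was then at 2.98 ± 1.55 CPM per kb in BCAS mice and above Oas2 in each of the 3. In sham mice Oasl1 was then above Oas1g in 2 of 3. Oas1a was then at 0.442 ± 0.241 CPM per kb in sham mice, and Oasl2 stayed above it in each of the 3.

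The make-up of the family's summed level changed with this order. Oas1a made up 18.0%, 10.3% and 8.44% of the sum in sham mice and 27.0%, 28.1% and 29.3% in BCAS mice. Oas1c made up 14.1 to 16.8% in the sham group and 2.67 to 4.64% in the BCAS group. Oas1b had a share of 11.98 to 20.79% in the sham group and 6.67 to 8.26% in the BCAS group. Oas1g had 0 to 5.44% and 7.58 to 8.50%, and Oas3 had 0.355 to 2.03% and 2.17 to 2.93%. The groups did not overlap in these 5 shares. The share of Oasl2 overlapped between the groups, with 30.9 to 44.7% in the sham and 31.6 to 35.5% in the BCAS group, and so did those of Oas2 and Oasl1. With the length of unshared sequence, Oas1a made up 13.1 to 26.8% of the sum in the sham and 37.3 to 39.9% in the BCAS group. The groups then stayed apart in the shares of Oas1a, Oas1b, Oas1c and Oas1g, and overlapped in that of Oas3. The shares are descriptions and were not tested.

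**Figure D2:**
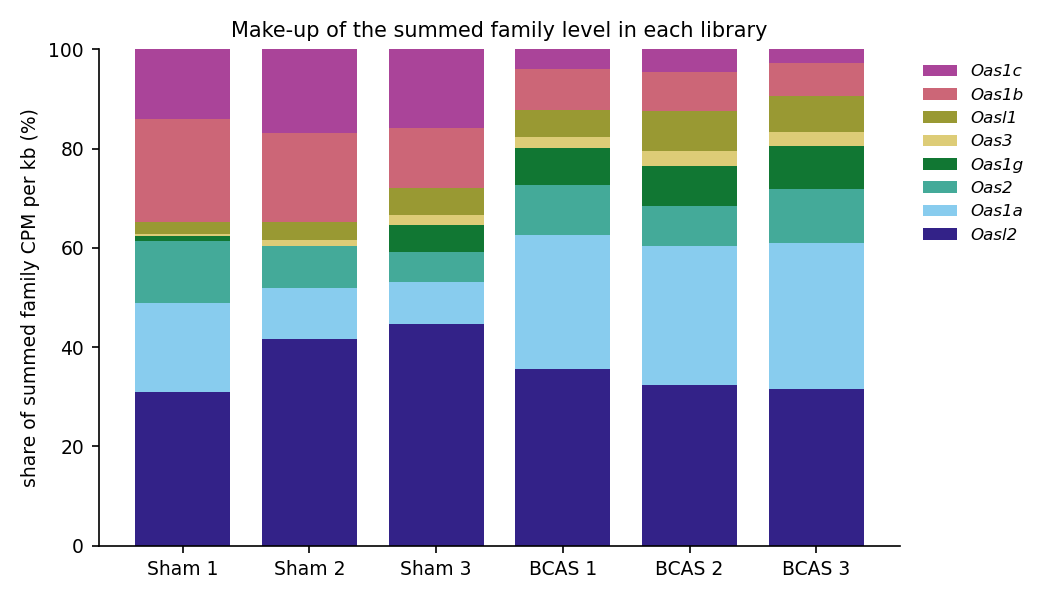
Share (%) of each of the 8 genes in the family's summed CPM per kb, as 1 stacked bar for each library. Oas1a takes 27.0 to 29.3% in the BCAS libraries against 8.44 to 18.0% in the sham libraries, while the bands of Oas1b and Oas1c are narrower in the BCAS libraries.

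The enzymes that remove 2-5A were read beside those that make it. The phosphodiesterases Pde12 and Akap7, which degrade 2-5A, had log2 fold changes of -0.18 (edgeR adjusted P = 0.165) and -0.074 (edgeR adjusted P = 0.566), and neither passed the P threshold.

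Most other genes of nucleic acid sensing on a fixed list moved in the same direction. Of 8 listed genes, which include the adaptor gene Mavs, 7 were called higher, and the median log2 fold change was 2.02. Zbp1, a sensor of nucleic acids in the Z form, had 9, 1 and 2 counts in the sham group and 196, 232 and 467 counts in the BCAS group (log2 fold change 6.29, SE 0.59, edgeR adjusted P = 1.21e-04). Without sham mouse 1, which held 9 of its 12 sham counts, the fitted value was 7.63 and rests on 3 counts. It passed the filter through the BCAS libraries alone, so a difference was built into being tested. Dhx58 (3.05), Eif2ak2 (2.40), Ifih1 (2.03) and Ddx58 (2.0), which encode LGP2, PKR, MDA5 and RIG-I, were all called higher. Tlr3 (1.16) and Mavs (1.04) were close to the fold change threshold and fell under it without BCAS mouse 3, at 0.98 and 0.89. The exception was Adar, whose product edits double-stranded RNA, with 111 ± 5.27 CPM in sham and 117 ± 6.07 CPM in BCAS mice (SD, n = 3 each; log2 fold change 0.079, edgeR adjusted P = 0.450).

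Of 13 genes of interferon signalling upstream of the family, 6 were called higher and none lower, with a median log2 fold change of 0.93. Irf7 (4.31) and Usp18 (3.64), the latter a brake on interferon receptor signalling, had the largest changes, and that of Irf7 was 3.72 without BCAS mouse 3. Irf9 (1.9) was called higher, and Stat2 (0.93, edgeR adjusted P = 7.18e-04) passed the P threshold alone, by which 18.0% of tested genes were higher. Stat2 was just past the fold change threshold as well with library totals (1.008) and without sham mouse 1 (1.001). Irf1 (1.34), Ifngr1 (1.66) and Ifnar2 (1.21) were also called higher. Ifnar1, Tyk2, Irf3 and Jak2 passed the P threshold with log2 fold changes of 0.29 to 0.59, whereas Jak1 (-0.13) and Ifngr2 (-0.081) did not. The call for Jak2 was lost without sham mouse 2 (edgeR adjusted P = 0.0821), sham mouse 3 (0.0747) or BCAS mouse 3 (0.0512), and that for Irf3 without sham mouse 1 (0.0662) or sham mouse 3 (0.0565). Transcripts of the interferons were at the limit of detection, since none of the 11 listed genes had more than 3 counts in any library and 8 of them had 0 counts in all. A difference in interferon transcripts was not detectable at this depth.

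**Figure D3:**
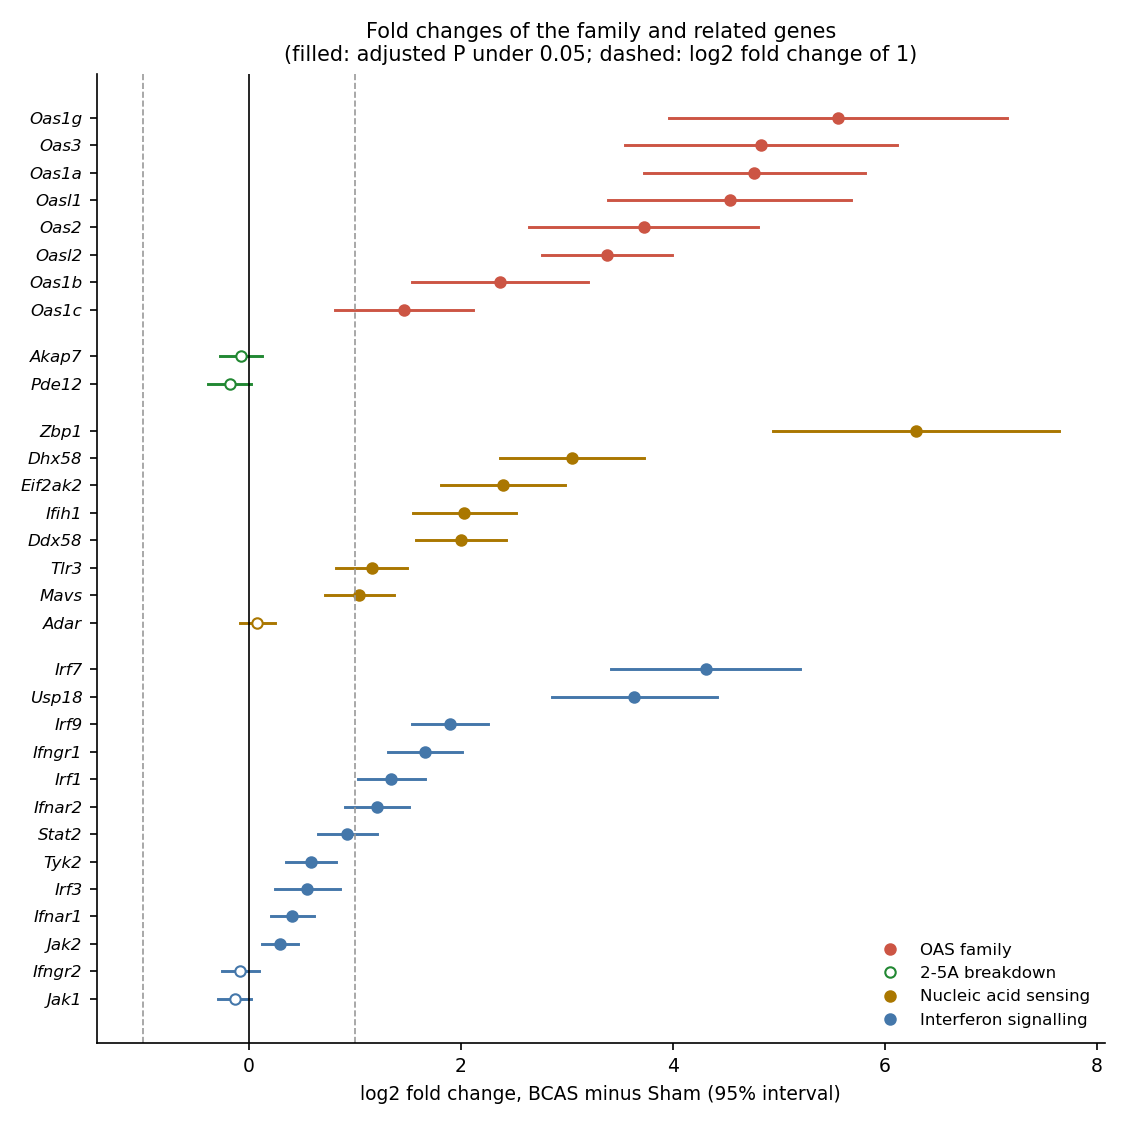
Log2 fold changes (BCAS minus sham) with 95% intervals for the 8 family genes, 2 genes of 2-5A breakdown, 8 genes of nucleic acid sensing and 13 genes of interferon signalling, with filled points for an adjusted P under 0.05. The family genes lie between 1.47 and 5.56, while Akap7 lies at -0.074 and Pde12 at -0.18.

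BCAS mouse 3 had the highest CPM in all 8 family genes. Its CPM relative to the mean of BCAS mice 1 and 2 was 1.26 for Oas1c, 1.71 for Oas1b, 1.93 for Oasl2 and 2.20 to 2.54 for the other 5 genes. The median of this ratio was 1.42 over all genes called higher and 0.993 over all tested genes. Irf7 (2.50), Zbp1 (2.18) and Usp18 (2.01) lay between Oasl2 and Oas2 in this ratio, and Irf9 (1.44) and Stat2 (1.28) between Oas1c and Oas1b. All 8 genes remained called without BCAS mouse 3, with log2 fold changes from 1.34 in the case of Oas1c upward.

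Markers of microglia moved with the family. All 8 listed markers were called higher, with log2 fold changes of 1.54 (P2ry12) to 3.14 (Aif1) and a median of 2.64. Their summed level was 298 to 310 CPM in sham mice and 1497, 1575 and 2389 CPM in BCAS mice 1 to 3, with mouse 3 again the highest. In bulk tissue, more cells of a type and more RNA per cell cannot be told apart. The ratio of group means was 6.00 for the microglia sum and 11.7 for the summed CPM of the family. For each 100 CPM of microglia markers the family had 2.62 to 2.82 CPM in the sham group and 4.40, 4.97 and 6.18 CPM in BCAS mice 1 to 3, and the part of microglia in the result was not tested. The 4 astrocyte markers were all higher by the P threshold, with Gfap at a log2 fold change of 3.29 and a summed level of 1133 to 1262 CPM in sham and 4969 to 5466 CPM in BCAS mice. In BCAS mice Gfap made up most of this sum, and BCAS mouse 1 was the highest in it, whereas BCAS mouse 3 was the highest in Aqp4, Slc1a3 and Aldh1l1. Markers of blood cells were low, with summed levels of 4.83 to 10.1 CPM for monocytes and neutrophils and 2.62 to 3.59 CPM for T and B cells in BCAS mice, against at most 1.63 and 0.748 CPM in sham mice. Of the 5 monocyte and neutrophil markers, 3 were tested and 2 were called higher (Ccr2 and Ly6c2). S100a9 was tested and not called (log2 fold change 1.25, edgeR adjusted P = 0.202). S100a8 did not pass the filter, and its levels overlapped, with 0.059 to 0.262 CPM in the sham and 0.154 to 1.19 CPM in the BCAS group. Ly6g, which defines neutrophils, had 0 counts in all libraries. Of the 5 T and B cell markers, 4 were tested and 3 were called higher (Cd3e, Cd3g and Cd3d). Ly6c2 and these 3 genes passed the filter through the BCAS libraries alone. Of 4 markers of meningeal fibroblasts, Col1a1 (2.13) and Col1a2 (1.52) were called higher, with a summed level of 76.8 to 159 CPM in sham and 158 to 270 CPM in BCAS mice. Of 4 endothelial markers, Flt1 (0.60) and Pecam1 (0.52) were higher by the P threshold alone, with a summed level of 168 to 191 CPM in sham and 230 to 246 CPM in BCAS mice. The part of these cells in the rise of the family was not tested.

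**Figure D4:**
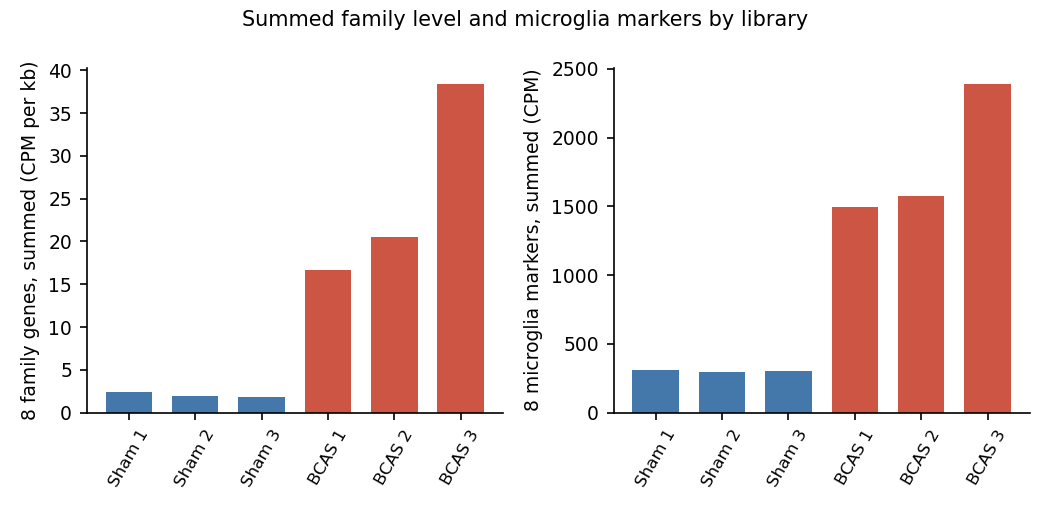
Bars for the 6 libraries of the summed CPM per kb of the 8 family genes and of the summed CPM of 8 microglia markers, each axis starting at 0. The family sum is 1.83 to 2.35 in sham mice and 16.6, 20.5 and 38.4 in BCAS mice 1 to 3, and the microglia sum is 298 to 310 in sham mice and 1497, 1575 and 2389 in BCAS mice 1 to 3.

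The family sits in 2 clusters on chromosome 5 that lie 5.79 Mb apart. The members of the Oas1, Oas2 and Oas3 cluster span 177 kb and those of the Oasl cluster 41.0 kb. Genes within 250 kb of either cluster were read to see how the surroundings behaved. Around the Oas cluster 10 other genes were tested, with a median log2 fold change of 0.12 and a range of -0.48 to 1.11. Of these, Slc8b1 (1.07), a mitochondrial sodium-calcium exchanger gene, and 2510016D11Rik (1.11), which lies within the span of Tpcn1, were called higher. Rph3a and Dtx1, the genes next to the cluster on either side, had log2 fold changes of -0.48 (edgeR adjusted P = 0.00836) and -0.081 (edgeR adjusted P = 0.533), and by the P threshold alone 13.2% of tested genes were lower. Around the Oasl cluster 13 other genes were tested, with a median of 0.33 and a range of -0.88 to 1.34. Acads (1.34), an enzyme gene of fatty acid breakdown, was called higher. In all, 3 of 23 neighbours were called higher, against 8.47% of all tested genes. By the P threshold alone 9 of the 23 were higher, among them Gltp (0.97), Ankrd13a (0.88) and Tpcn1 (0.71), against 18.0% of all tested genes, and 2 were lower. The largest log2 fold change among the neighbours was below that of every member.

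**Figure D5:**
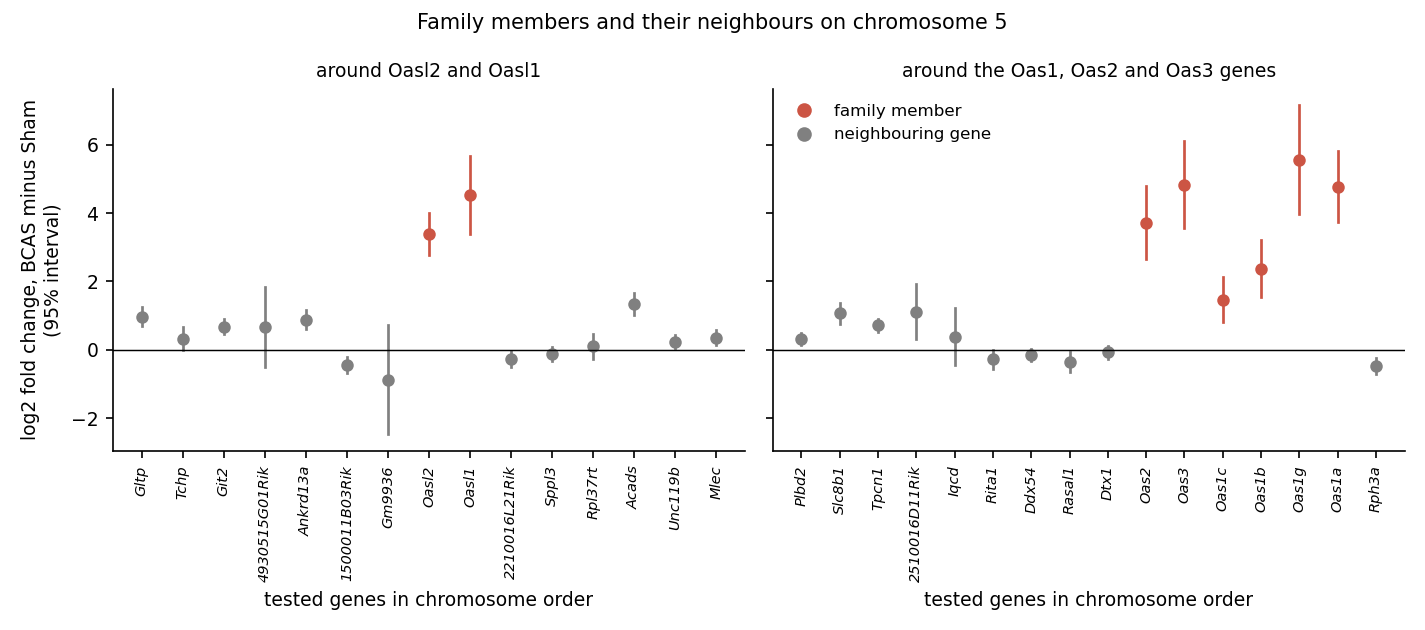
Log2 fold changes (BCAS minus sham) with 95% intervals of the tested genes around both clusters, in their order along the chromosome, with members in red and neighbours in grey. Members range from 1.47 to 5.56 and neighbours from -0.88 to 1.34.

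The profiles of other genes over the 6 libraries were compared with those of the members by the root mean square difference of centred log2 CPM, among 15623 genes with at least 1 CPM on average. Most of any such profile is the difference between the groups, so a small value says that log2 CPM moved in a similar way. The log2 CPM hold a prior count of 2, which damps differences at low counts, so fitted log2 fold changes can still differ. They were 5.36 for Gpr65 and 4.77 for Oas1a, for example. Oasl2, whose own profile had a root mean square of 1.68, was closest to Cd37 (0.065), Ifit1 (0.093) and Tlr13 (0.097). Ifit1 is another classic interferon target. Oas1a was closest to Gm5431 (0.158), Gpr65 (0.162) and Cd180 (0.277). Oas1c was closest to Ddx31 (0.062), Eif4ebp1 (0.089) and P2rx4 (0.090). Oas1g lay farther from its nearest genes, which were the chemokine genes Cxcl10 (0.391) and Ccl4 (0.446) and the receptor gene Cd72 (0.468). Oas3 was closest to Phf11b (0.207), Oas2 to Pik3ap1 (0.228), Oasl1 to C3ar1 (0.178) and Oas1b to Plcg2 (0.138).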

How the data were processed

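The authors trimmed the reads with Trim Galore, aligned them to mm10 with HISAT2 and counted them per gene, and they deposited raw counts for each library without normalization or filtering. The file headers name featureCounts 2.0.3, and the submitters' processing notes name 1.6.3. According to the headers, exons of GENCODE vM20 were summed per gene, both mates of a pair were counted, strand was not used, and reads that fit several places or genes were dropped. The study's methods name RefSeq genes instead. Symbols were matched for 54723 of 54752 genes.

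Low genes were removed with filterByExpr. TMM factors and the quasi-likelihood test of edgeR were then applied to the counts, without a replicate block (edgeR 4.0.16, limma 3.58.1, DESeq2 1.42.0, R 4.3.3), with Benjamini-Hochberg adjustment over all tested genes. Standard errors were taken from the F statistic. Log2 CPM used a prior count of 2. The code was tested on simulated data. Named genes are all 8 members, the genes of fixed lists, the neighbours and the closest profiles. The members and lists were chosen with earlier results of these data known. Alternatives were DESeq2, limma-voom, RLE factors, library totals, other filters, no fold change threshold, halved counts, a replicate block and leaving out each mouse. The length of unshared sequence was added after seeing the data. Replicate numbers do not pair the mice. The planned protein comparison used reading frames of GENCODE vM21 transcripts (also GRCm38) instead, aligned with Biopython 1.88. Some genes of the pathway are not reported here.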

Additional observations from a re-analysis of the deposited data

How the results depend on the processing

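All 8 family genes were called higher under each of the alternatives run, namely DESeq2, limma-voom, RLE factors, library totals, no filter beyond 1 count, a mean of at least 10 counts, halved counts, no fold change threshold and the replicate block, and also with each mouse left out (8 to 8 called). Over all genes, 3356 were higher and 2463 lower without the fold change threshold. With 1 mouse left out, 1210 to 1746 genes were called higher and 96 to 238 lower, against 1576 and 186. The fewest, 1210 and 96, came without BCAS mouse 3, and 117 were lower without sham mouse 3. The replicate block gave 1437 genes higher and 158 lower. Residuals of libraries with the same number correlated at 0.036, -0.314 and -0.158, so the numbers were not taken as pairs. These are the numbers of the labels, and the BCAS columns of the files are numbered 2 to 4 in place of 1 to 3. Library totals in place of TMM moved the median log2 fold change of all genes from 0.018 to 0.094 and turned no member. Low sham counts limit the fold changes of Oas1g, Oas3 and Oasl1 most, with 10, 17 and 20 counts in the 3 sham libraries together.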
